A study of Arabidopsis thaliana with 4 samples.

Results

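Cell division in plants runs through a phase of DNA copying, a mitosis in which the spindle separates the chromosomes, and a cytokinesis in which the phragmoplast, an array of microtubules, builds the new cell plate. Many of the genes involved are transcribed in short windows of the cycle, so in a seedling shoot their messages come mainly from the dividing cells of the meristem and of the young leaf primordia. The 48 genes described here were listed by locus or symbol as M-phase, spindle, kinesin and replication genes. The list was matched to the array through probe sets that the platform annotation gives to 1 gene, with the brightest probe set kept for each locus. This found 30 of the 48 genes, each on 1 probe set, among 13286 loci with a single-gene probe set on the array.

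The samples were shoots of Arabidopsis thaliana seedlings, taken at stage 1.02 of development and grown at 29 °C under 24 h of light per day after 4 days at 4 °C. In the study's labels the tissue covers hypocotyls, cotyledons, meristems, the first pair of true leaves and the beginnings of further leaves. The mutant group, add3 (ARRESTED DEVELOPMENT 3), carried an EMS-induced mutation in Col-3 gl1 plants, which lack leaf hairs because of the gl1 mutation. The comparison group was wild-type Col-0, so the effect of add3 and the effect of the background cannot be told apart. Each group had 2 samples on 1 Affymetrix ATH1 array each, and a value is the MAS5 signal, a background-adjusted brightness on a linear scale, as deposited. Whether the replicates came from separate plantings is not given in the labels, so the p-values rest on a spread between samples that may be purely technical.

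The arrays resembled each other in overall level, with median signals of 48.2 to 52.1, and the number of arrays limits the precision. The background level of each array, taken as the highest bacterial control that read as unspiked, was 20.5 and 13.0 in wild type and 25.4 and 12.3 in add3, replicate 1 first. The 3' to 5' signal ratio of the actin controls, a sign of RNA quality, was 4.49 and 2.71 in wild type and 3.10 and 3.17 in add3. The 5S ribosomal RNA control was lower in add3, with 182 and 78.0 in wild type against 39.5 and 38.0, and its part in the results was not tested. Few marker genes of cell types could be read: the meristem genes CLV3 and UFO (2 of 10 listed) and the leaf hair gene TRY (1 of 4) were below the filter on low signals used here, and no probe set was found for the listed mesophyll and root markers. The photosystem II subunit gene PSBY, looked up after the data had been seen, gave signals of 1588 and 1726 in wild type and 2697 and 2711 in add3, so green tissue was present in all 4 samples. PSBY itself rose in add3 (log2 difference 0.70, limma adjusted p = 0.0157), and the part of a change in tissue makeup in the results was not tested.

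The comparison of add3 with wild type asked whether transcripts of the division machinery differed in the mutant shoot. Of the 30 measured genes, 20 had both add3 signals above both wild-type signals (66.7%), 9 overlapped and 1, AT1G69400, had both add3 signals below. Over all 22746 probe sets of the array, 19.4% had both add3 arrays above both wild-type arrays and 30.8% had both below. The median log2 difference, add3 minus wild type, was 0.33 over the 30 genes and -0.06 over all probe sets. The genes were listed with earlier results of these data known. The counts and medians of the list, here and below, therefore describe it and do not test it. Differences are given on the scale of log2(signal + 12.5), which understates the change of dim genes. In whole shoots, more dividing cells and more RNA of these genes per cell cannot be told apart.

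**Figure D1:**
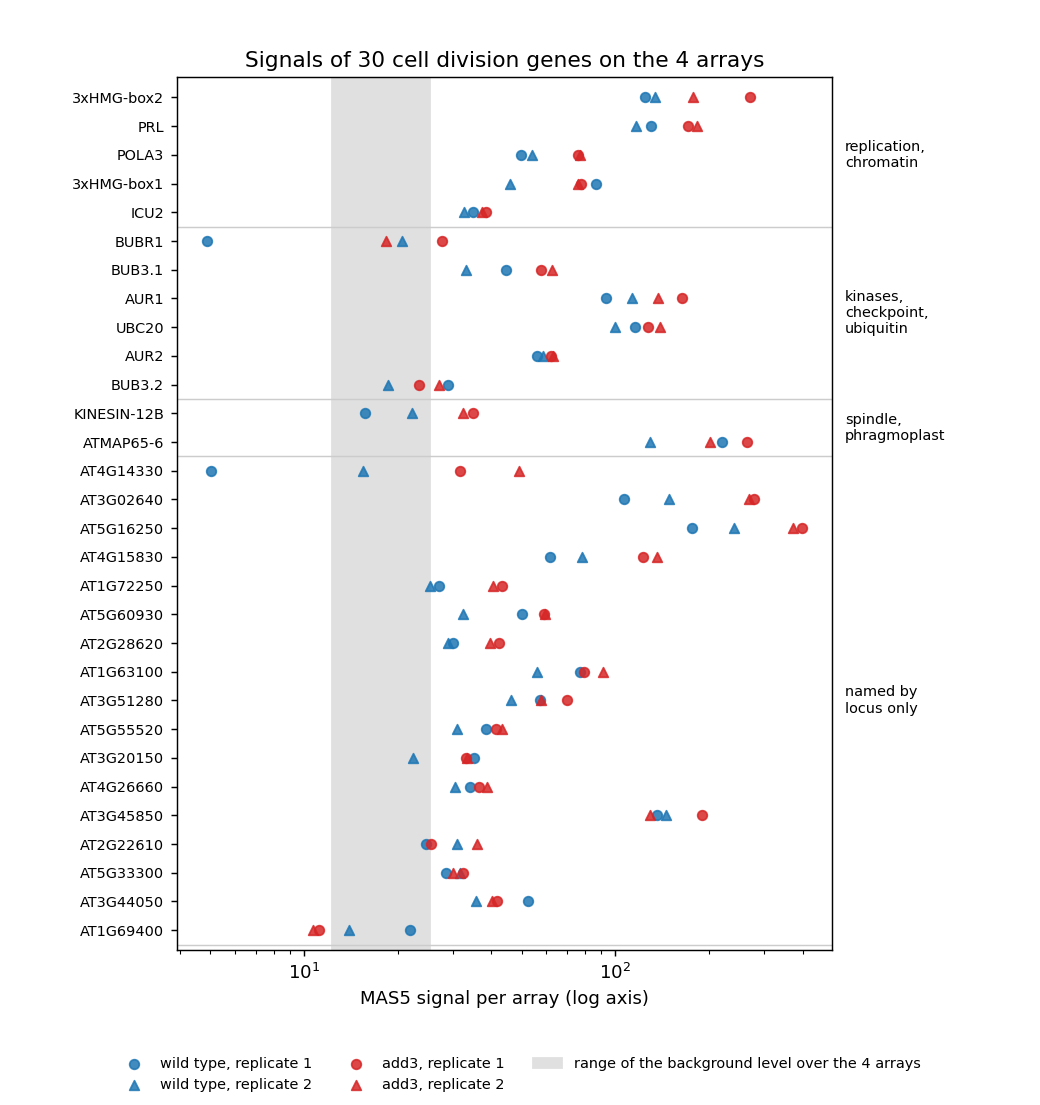
MAS5 signal of the 30 cell division genes (log axis) on each of the 4 arrays, grouped by role, with wild type in blue and add3 in red. The grey band spans the background levels of the 4 arrays, from 12.3 to 25.4. In 20 of the 30 rows both red points lie to the right of both blue points.

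The test was limited to probe sets with a mean signal of at least 33.2 over the 4 arrays, which 22 of the 30 genes reached. Of these 22 genes 3 rose (13.6%) and none fell, by limma at a threshold of 0.05 on p-values adjusted (Benjamini-Hochberg) over all 13648 tested probe sets. The background was 4.17% of tested probe sets that rose and 3.14% that fell, 7.31% in all. At a threshold of 0.10, 5 of the 22 genes were higher (22.7%), against 7.61% of all. At an unadjusted p under 0.05 stood 9 of the 22 genes (40.9%) and 26.3% of all tested probe sets. The median log2 difference of the 22 genes was 0.38, against -0.05 over all tested probe sets, and 21 of the 22 were above 0, against 44.1%. Both add3 signals were above both wild-type signals in 18 of the 22 genes, against 24.8%, and below in 0, against 32.3%. A filter on the mean keeps some genes through their bright group, so the counts over all 30 measured genes given above are the ones it does not touch. With 2 arrays against 2, an exact two-sided permutation of the arrays cannot give a p below 0.333.

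The genes that rose were AT3G02640, AT5G16250 and AT4G15830, all named by locus only in the gene table, which gives them no function. AT3G02640 had signals of 107 and 149 in wild type and 279.7 and 269.7 in add3. Its log2 difference was 1.05 (SE 0.17, limma adjusted p = 0.0180), a ratio of mean signals of 2.15. AT5G16250 had signals of 176 and 241 in wild type and 398 and 372 in add3. Its log2 difference was 0.86 (SE 0.17, limma adjusted p = 0.0301). AT4G15830 had signals of 61.8 and 78.2 in wild type and 123 and 136 in add3. Its log2 difference was 0.79 (SE 0.16, limma adjusted p = 0.0324). In all 3 genes the groups lay apart, and wild-type replicate 1 was the lowest of the 4 arrays. The call of AT3G02640 held when each array in turn was left out (limma adjusted p = 0.0200 to 0.0376). That of AT5G16250 was lost without wild-type replicate 1 (0.0561) and add3 replicate 1 (0.0724), and that of AT4G15830 without wild-type replicate 1 (0.0834), add3 replicate 1 (0.0565) and add3 replicate 2 (0.10). Without a filter on low signals all 3 calls were lost (0.0652, 0.0843 and 0.0896), with 0 of the 30 genes and 13 probe sets of 22746 past the threshold in limma. At an unadjusted limma p under 0.05 in that fit stood 11 of the 30 genes and 4143 of the 22746 probe sets.

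The replication and chromatin genes were all measured and all tested, 5 of 5, and none passed the threshold. Their log2 differences lay between 0.12 and 0.71, and in 4 of 5 both add3 signals were above both wild-type signals, against 24.8% of all tested probe sets. PRL (PROLIFERA) encodes the MCM7 subunit of the helicase that opens DNA at the replication fork. Its signals were 129.8 and 116 in wild type and 171 and 183 in add3, with a log2 difference of 0.49 (95% confidence interval 0.17 to 0.80, limma adjusted p = 0.0717). When all arrays were brought to 1 median, PRL and 3xHMG-box2 passed the threshold (limma adjusted p = 0.0394 and 0.0447). POLA3 encodes a subunit of the DNA polymerase alpha-primase complex, which lays down the primers of new strands. Its signals were 49.8 and 53.9 in wild type and 75.8 and 77.1 in add3 (log2 difference 0.47, limma adjusted p = 0.102). Within each group the arrays of POLA3 were close, and the groups lay apart. ICU2 encodes the catalytic subunit of the same polymerase. Its signals were 34.8 and 32.6 in wild type and 38.3 and 37.2 in add3, a log2 difference of 0.12 with an interval of -0.31 to 0.55.

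The 3xHMG-box proteins bind condensed chromosomes in mitosis. 3xHMG-box2 had signals of 125 and 135 in wild type and 272 and 178 in add3 (log2 difference 0.71, SE 0.20, limma adjusted p = 0.0751). Its size rested on add3 replicate 1: the log2 difference was 1.00 and past the threshold without add3 replicate 2 (limma adjusted p = 0.0195), and 0.42 without add3 replicate 1 (limma adjusted p = 0.298). 3xHMG-box1 had signals of 86.9 and 45.7 in wild type and 77.3 and 76.0 in add3. Its add3 values lay between the wild-type arrays, so the groups overlapped (log2 difference 0.23, interval -0.35 to 0.81).

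Of the 10 listed genes for mitotic kinases, the spindle checkpoint and the ubiquitin pathway, 6 were measured and 4 tested, and none passed the threshold. Both add3 signals were above both wild-type signals in 4 of the 6 measured genes, against 19.4% of all probe sets, and the other 2 overlapped. The 4 were the tested genes, and the share over all tested probe sets was 24.8%. AUR1 encodes an Aurora kinase, which acts on the spindle and on chromosomes. Its signals were 93.1 and 113 in wild type and 164 and 137 in add3, with a log2 difference of 0.50 (interval 0.13 to 0.86, limma adjusted p = 0.101). AUR2 encodes a related kinase. Its signals were 55.9 and 58.5 in wild type and 62.1 and 63.1 in add3. Its log2 difference was 0.11 (interval -0.24 to 0.46), and whether it differed from that of AUR1 was not tested. BUB3.1 encodes a protein of the spindle checkpoint, which holds back the separation of chromosomes until all are attached. Its signals were 44.4 and 33.1 in wild type and 57.7 and 62.5 in add3 (log2 difference 0.51, limma adjusted p = 0.135). UBC20 encodes a ubiquitin-conjugating enzyme. Its signals were 115 and 100.03 in wild type and 127 and 139 in add3 (log2 difference 0.28, limma adjusted p = 0.253).

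The other checkpoint genes were too dim for the test. BUBR1 had signals of 4.86 and 20.7 in wild type and 27.8 and 18.3 in add3, and BUB3.2 had 28.9 and 18.6 in wild type and 23.5 and 27.1 in add3. In both genes the groups overlapped, BUBR1 was above the background level on 1 of the 2 wild-type arrays, and BUB3.2 on 1 of the 2 add3 arrays. No probe set was matched to MAD2, FZR3, CCS52A2 and FZR2.

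Of the 12 named spindle and phragmoplast genes, 2 were measured. ATMAP65-6 encodes a microtubule-associated protein of the MAP65 family. Its signals were 221 and 129 in wild type and 265 and 201 in add3, so the groups overlapped (log2 difference 0.42, interval -0.16 to 1.00). The difference was 0.063 without wild-type replicate 2 and 0.79 without wild-type replicate 1. KINESIN-12B encodes a motor protein of the phragmoplast. It was below the filter, with signals of 15.7 and 22.2 in wild type and 34.8 and 32.4 in add3, and was above the background level on 1 of the 2 wild-type arrays and on both add3 arrays. No probe set was matched to ATK1, ATK2, ATK5, POK2, PAKRP1, EB1C, TPX2, PLE, CSLD5 and TRM7, nor to the 4 cyclin genes CYCA1;1, CYCB1;4, CYCB2;4 and CYCB3;1.

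The remaining listed genes, named by locus only, numbered 17 with the 3 that rose. Of the 17 genes, 11 had both add3 signals above both wild-type signals, 1 had both below and 5 overlapped. Over all probe sets of the array, 19.4% had both above and 30.8% had both below. Of the 12 that were tested, 11 had a log2 difference above 0, against 44.1% of all tested probe sets, and 10 had both add3 signals above, against 24.8%. Both counts include AT1G72250, AT2G28620 and AT4G26660, which passed the filter only through their add3 signals. Their wild-type mean signals were 26.3, 29.6 and 32.3. Next to the 3 that rose, AT1G72250 had signals of 27.2 and 25.3 in wild type and 43.3 and 40.6 in add3 (log2 difference 0.49, limma adjusted p = 0.157). AT5G60930 had signals of 50.3 and 32.5 in wild type and 59.0 and 59.5 in add3, with groups apart and wild-type arrays that differed more than the groups did at their nearest (log2 difference 0.43, limma adjusted p = 0.229). Its difference was 0.19 without wild-type replicate 2 and 0.67 without wild-type replicate 1. AT2G28620 had signals of 30.04 and 29.1 in wild type and 42.2 and 39.6 in add3 (log2 difference 0.35, limma adjusted p = 0.285). AT1G63100, AT3G51280, AT5G55520, AT4G26660 and AT3G45850 had log2 differences of 0.31, 0.25, 0.22, 0.16 and 0.14, with intervals that included 0. AT3G44050 was the only tested gene below 0, with signals of 52.3 and 35.6 in wild type and 41.8 and 40.2 in add3. Its log2 difference of -0.06 turned to 0.01 when the arrays were scaled to the same median or quantile-normalized.

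The other 5 genes of this group had mean signals below the filter and were not tested. AT4G14330 had signals of 5.01 and 15.4 in wild type and 31.8 and 49.1 in add3. It was above the background level on 1 of the 2 wild-type arrays and on both add3 arrays, so its wild-type level is in part only a bound. AT1G69400 had signals of 21.9 and 13.9 in wild type and 11.1 and 10.7 in add3, where it was not above the background on either array. AT2G22610, AT5G33300 and AT3G20150 had signals between 22.3 and 35.9, above the background level on all 4 arrays, with overlapping groups. The genes nearest to the filter were AT1G72250 just inside it, with a mean signal of 34.1, and AT3G20150 just outside, with 31.0.

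**Figure D2:**
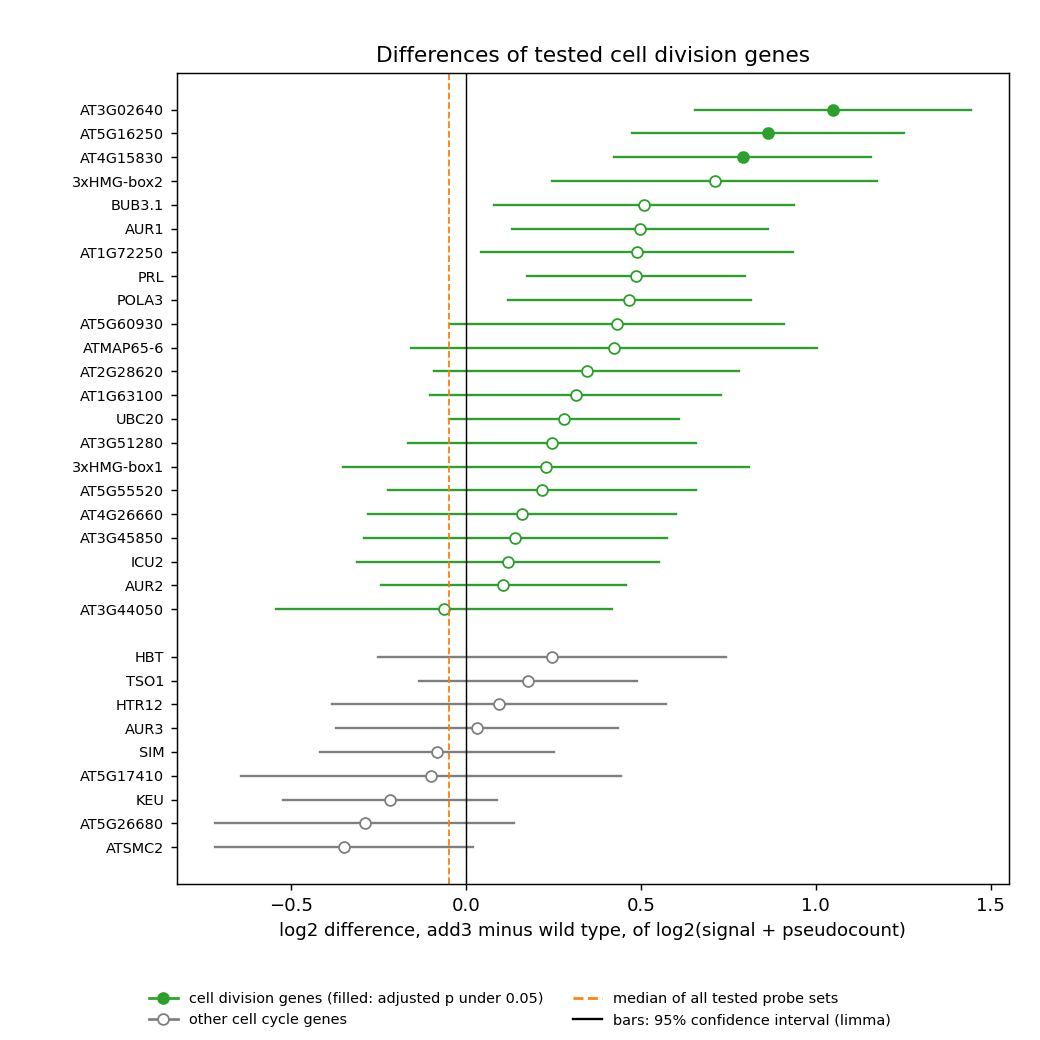
Log2 difference, add3 minus wild type, with its 95% confidence interval from limma, for the 22 tested cell division genes in green and for 9 other tested cell cycle genes in grey. Filled points mark the 3 genes past the threshold, and the dashed line is the median of all tested probe sets at -0.05. The intervals of 9 green genes lie above 0, among them AT1G72250, which passed the filter through its add3 signals.

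Few other genes of the cell cycle could be tested, and none gave a call. Lists of cyclins and kinases, CDK inhibitors, E2F and MYB3R regulators, replication factors, cytokinesis genes and chromosome and checkpoint genes held 127 further loci. Of these, 11 were measured and 9 tested. The list of 33 cyclins, kinases and their subunits had no measured gene. Of the list of 14 E2F, MYB3R and related regulators only TSO1 was measured, and of 28 replication factors only AT5G26680. None of the 9 passed the threshold in limma (smallest adjusted p = 0.212), and none had an unadjusted p under 0.05. Their log2 differences were above 0 in 4 genes and below 0 in 5. Both add3 signals were above both wild-type signals in 1 of the 9 and below in 4. Of all tested probe sets, 24.8% had both above, 32.3% had both below and 44.1% were above 0. Below the filter, AT1G08180 had both add3 signals (35.0 and 38.0) above both wild-type signals (28.4 and 23.9). AT3G57060, also below the filter, had overlapping signals of 16.2 and 10.6 in wild type and 15.4 and 23.5 in add3.

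The gene nearest to a call was ATSMC2, which encodes a condensin subunit that compacts chromosomes. Its signals were 60.2 and 59.6 in wild type and 45.6 and 43.1 in add3 (log2 difference -0.35, interval -0.72 to 0.02). KEU (KEULE), which acts in vesicle fusion at the cell plate, had signals of 180.4 and 201 in wild type and 159 and 165 in add3 (log2 difference -0.22). HBT (HOBBIT), a subunit of the complex that marks mitotic proteins for breakdown, had overlapping signals of 66.2 and 42.1 in wild type and 59.6 and 71.3 in add3. TSO1, a regulator of division in the shoot, had a log2 difference of 0.18 and SIM (SIAMESE), an inhibitor of cyclin-dependent kinases, of -0.08. AT5G26680 of the replication list and AT5G17410 of the cytokinesis list had log2 differences of -0.29 and -0.10. AUR3, the third Aurora kinase gene, had a log2 difference of 0.03 and HTR12, the centromeric histone gene, of 0.09 (interval -0.38 to 0.57). Whether these genes differed from the cell division list as a group was not tested.

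Divisions of the stomatal lineage are another source of mitosis in young leaves and cotyledons. Of 6 listed markers 3 were measured, and their summed signal was 108 and 128 in wild type and 90.2 and 110 in add3, so it overlapped between the groups. FMA alone had both add3 signals (60.4 and 64.5) below both wild-type signals (74.9 and 76.1). SPCH and FMA, which encode transcription factors that start and end that lineage, had log2 differences of -0.24 and -0.23 (limma adjusted p = 0.579 and 0.349). MUTE, below the filter, had signals of 2.34 to 9.37. The part of this lineage in the values above was not tested.

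The size of the difference depended on the wild-type array. Over the 22 tested genes the median log2 difference was 0.28 and 0.23 for add3 replicates 1 and 2 against wild-type replicate 1, and 0.49 and 0.43 against wild-type replicate 2. The genes above 0 numbered 20, 18, 22 and 21 of 22 in the same order. Of all tested probe sets 46.6%, 46.0%, 45.0% and 44.2% were above 0. The 22 genes include AT1G72250, AT2G28620 and AT4G26660, which passed the filter only through their add3 signals. All tested probe sets had medians between -0.05 and -0.03 in these 4 pairs. Replicate 1 minus replicate 2 had a median over the 22 genes of 0.09 in wild type and 0.03 in add3. These differences are signed, with 14 of 22 genes above 0 in wild type and 12 in add3. Opposite signs cancel in such a median, so it does not measure the spread between replicates. In the fit without wild-type replicate 2 the median was 0.19 with 3 genes called, without wild-type replicate 1 it was 0.46 with 1 called, and without add3 replicate 1 it was 0.36 with 1 called. Wild-type replicate 1 was also the array with the highest actin 3' to 5' ratio, and its part in these values was not tested.

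**Figure D3:**
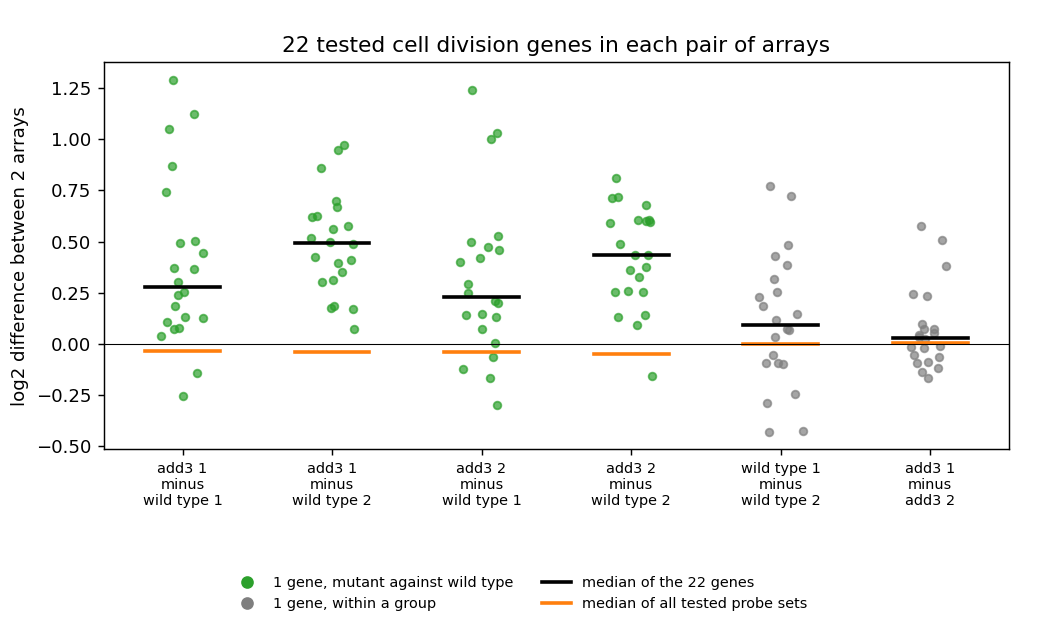
Log2 difference of each of the 22 tested genes between 2 arrays, for the 4 pairs of add3 with wild type (green) and the pairs within a group (grey), with the median of the 22 genes in black and of all tested probe sets in orange. The black medians are 0.28, 0.49, 0.23 and 0.43 between the groups, and 0.09 and 0.03 within wild type and within add3. Within a group the differences are signed, replicate 1 minus replicate 2, so opposite signs cancel and the median does not measure the spread.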

How the data were processed

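The deposited file holds a MAS5 signal intensity for each probe set on each array, per the submitters' processing notes, which name no version. The trimmed mean of the deposited intensity values was 100 on every array, so each array had been scaled by 1 factor. Sample titles gave the groups and replicate numbers. Of 22746 non-control probe sets, the platform annotation gave 13513 to 1 gene, 503 to several and 8730 to none. Names came from the TAIR10.1 gene table. Signals were turned into log2(signal + 12.5), 12.5 being 0.25 of the median signal. Probe sets at or above the 40th percentile of the mean signal were tested with limma 3.58.1 in R 4.3.3 (two-sided, eBayes with a trend on intensity, with 2 residual degrees of freedom), Benjamini-Hochberg adjusted over 13648 probe sets. The procedure was tested on simulated data. The members, lists and tests were chosen with earlier results of these data known. The lists were written from general knowledge. All 30 measured genes are accounted for, with full values for those past the threshold and the largest, smallest and brightest of each role; of the other lists, members with the smallest p are named. Genes without a name in the gene table are given no role and stand in 1 group, in place of the separate kinesin group first planned. A planned search for promoter motifs was not run, since no sequence was used here. The background level was the highest of 27 bacterial controls. Alternatives changed the pseudocount, the filter, the scaling, the variance model or the threshold, added a replicate block, or left out each array.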

Additional observations from a re-analysis of the deposited data

How the results depend on the processing

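The main counts were 569 probe sets higher and 428 lower in add3, 3 of 22 cell division genes higher and 0 lower, and a median of 0.38. Median scaling gave 937 higher and 320 lower, a share of higher calls of 74.5% against 57.1%, a median of 0.46 and 5 genes, now with PRL (limma adjusted p = 0.0394) and 3xHMG-box2 (0.0447), while the median of all tested probe sets moved from -0.05 to 0.04. With no filter 5 and 8 probe sets and 0 of the cell division genes were called, and the median over 30 genes was 0.33. The stricter filter left 14 genes, with a median of 0.45. Of these, 11 were higher on both add3 arrays, against 18 of 22, because fewer genes were tested. The share of all probe sets at that filter that were higher on both was not computed. Double the pseudocount gave a median of 0.32. Without an intensity trend 308 and 247 probe sets were called, and AT5G16250 was lost (limma adjusted p = 0.0518). A threshold of 0.10 gave 1038 and 929 probe sets and 5 genes. Leaving out each array in turn gave 232 to 506 probe sets higher, 205 to 311 lower, 1 to 3 genes called higher and a median of 0.19 to 0.46; 18 to 21 genes were higher on each add3 array left. In these fits the lone array of a group is assumed to vary like the other group. Some differences near 0 changed sign: AT3G44050 (0.014 with median scaling, 0.0083 with quantile normalization, and -0.28 to 0.15 when each array was left out), 3xHMG-box1 (-0.16 to 0.61, lowest without wild-type replicate 2) and AT3G45850 (-0.11 to 0.40, lowest without add3 replicate 1), and the cause was not tested. The fit with the replicate number as a block called 501 and 377 probe sets and the median stayed at 0.38, with 3 genes called. Over the 13648 tested probe sets same-numbered arrays did not deviate together (correlation of deviations -0.12), so the numbers were not taken as pairs. Some array controls did go with the replicate number. In wild type and add3 the background level was 20.5 and 25.4 in replicate 1, and 13.0 and 12.3 in replicate 2. The 25S ribosomal RNA control was 45.7 and 43.1 in replicate 1, and 105 and 118 in replicate 2. Whether same-numbered arrays shared a batch is not given in the labels. Of 256 comparisons of single genes with an alternative, 239 kept their direction and their side of the threshold. Since 19 of the 22 tested genes were not called in the main fit, most of these comparisons only kept an uncalled gene uncalled. Of the 3 genes that rose, AT5G16250 and AT4G15830 lost their calls in several alternatives, as given above. AT3G02640 lost its call only without a filter on low signals.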
